A study of Mus musculus with 12 samples.

Results

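The genes described here are 77 of the 28948 genes measured in 3T3-L1 fat cells: their RNA was lower in cells with more Foxp1 and higher in cells with less Foxp1. A gene was taken when its log2 ratio of group means, each mean in RPKM plus 1, was -0.5 or less with overexpression and at least 0.5 with knockdown. In addition, the 3 libraries of each treated group had to lie apart from the 3 of its control. RPKM divides a gene's reads by its exon length and by the size of the library, so that genes of different length can be compared. The genes were thus chosen by the measured changes in both comparisons, and those changes are given as a description, without a test. They are called Foxp1-opposed for short.

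3T3-L1 is an established fibroblast-like line from Swiss mouse embryos that turns into fat cells in culture. Its cells carried an empty vector, a construct for constant overexpression of FOXP1, a scrambled short hairpin RNA (shRNA) or an shRNA against Foxp1, with 3 libraries of total RNA in each of the 4 groups. Every group was differentiated with insulin (5 µg/ml), dexamethasone (1 µM), the phosphodiesterase inhibitor isobutylmethylxanthine (0.5 mM) and troglitazone (10 µM), an agonist of the fat cell regulator PPARγ, then changed to insulin alone on day 4 and to growth medium on day 6. The promoter of the construct, the number of hairpins, the day of harvest and what a replicate stands for are not given in the sources used here, so a p-value measures only the spread between these libraries.

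Foxp1 is a transcription factor of the forkhead family that binds DNA at forkhead sites and is best known as a repressor. Mature fat cells store triglyceride in droplets, secrete hormones such as adiponectin, and carry high levels of enzymes that dispose of peroxides, alcohols and foreign compounds. Their differentiation is driven by PPARγ and the C/EBP factors.

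The targeted gene followed its labels. Foxp1 was at 1.83, 1.76 and 1.82 RPKM in the empty-vector libraries and at 5.78, 7.16 and 6.75 with overexpression (log2 difference 1.43, SE 0.058, adjusted p = 1.19e-09, limma). It was at 2.24, 2.199 and 2.11 RPKM with the scrambled hairpin and at 1.11, 1.14 and 1.08 with the Foxp1 hairpin (log2 difference -0.59, SE 0.058, adjusted p = 7.40e-06). Assigned reads per library ranged from 35252019 to 38450002, and 1 read on 1 kilobase of exon equalled 0.0260 to 0.0284 RPKM. Of the 18 fat cell markers, 5 are among the 77 genes, and the other 13 summed to 5451 to 5500 RPKM in empty-vector cells, 3604 to 3784 with overexpression, 4696 to 4949 with the scrambled hairpin and 5018 to 5165 with the Foxp1 hairpin. Of the lists for other cell types, the defining genes of macrophages, endothelium and lymphocytes were mostly below 1 RPKM everywhere (9 of 11, 7 of 7 and 7 of 7), though none was at 0 in every library. The 10 mesothelial and epithelial genes summed to 2.86 to 3.35 RPKM in empty-vector cells, 25.7 to 31.9 with overexpression, 9.27 to 10.6 with the scrambled hairpin and 7.45 to 8.01 with the Foxp1 hairpin, and the 9 skeletal muscle genes to 13.6 to 14.9, 39.6 to 44.9, 1.84 to 2.08 and 2.502 to 3.22. Of these, 6 of the 10 and 7 of the 9 were below 1 RPKM in every library, so each sum rests on a few genes. The part of these lists in the results was not tested. Overexpression replicate 3 had 13.1% of its reads from the mitochondrial genome, against 9.99% and 9.65% in the other overexpression libraries, and leaving it out gave 74 genes by the same rule in place of 77.

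By size and separation, 651 of 28948 genes (2.25%) were lower with overexpression and 300 (1.04%) were higher with knockdown. The 77 genes that met both conditions (0.266%) made up 11.8% of the former and 25.7% of the latter. With the same limits, 98 genes were raised by more and lowered by less Foxp1, 34 were lower in both comparisons and 23 were higher in both. A total of 75 of the 77 genes reached 1 RPKM in at least 3 libraries, as did 11245 genes in all, and the other two, Prr32 and Glyat, stayed below it. Limma called 2285 of these 11245 genes lower with overexpression (20.3%) and 2100 higher with knockdown (18.7%), and all 75 were among both, as the rule makes likely. The calls over all genes depended on scaling: those with overexpression, 3490 higher (31%) and 2285 lower, became 2437 and 2580 when libraries were rescaled to TPM, the length-corrected share of all transcripts. The knockdown calls, 2100 higher and 3487 lower (31%), became 1615 and 3710 after that rescaling, 2656 and 2897 under quantile normalization and 2628 and 2955 when scaled by median ratios.

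The sizes were uneven between the comparisons. The median log2 change was -0.94 with overexpression, down to -3.88, and 0.65 with knockdown, up to 2.45; over all 11245 genes the medians were 0.05 and -0.04. Overexpression gave the larger change in 52 genes and knockdown in 25. Group means differed at least 2-fold with overexpression in 46 genes, with knockdown in 25 and in both in 19. Mean levels over the 12 libraries ran from 0.328 RPKM (Glyat) to 2394 RPKM (Cidec), with a median of 9.85. Together the 77 genes took 1.54% to 1.56% of reads with the empty vector and 0.567% to 0.569% with overexpression, and 0.921% to 0.957% with the scrambled hairpin and 1.52% to 1.63% with the Foxp1 hairpin. In RNA from bulk cultures, fewer differentiated cells and less RNA of these genes per cell cannot be told apart.

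**Figure D1:**
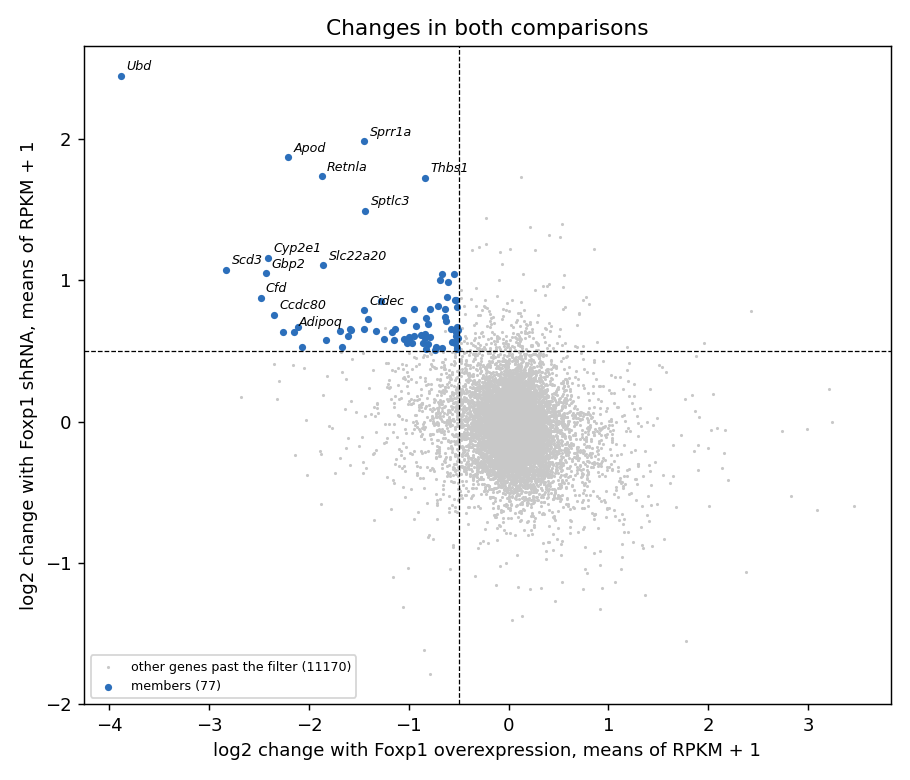
Log2 change of group means (RPKM + 1) with Foxp1 overexpression (x axis) and with Foxp1 shRNA (y axis) for each gene; blue points are the 77 Foxp1-opposed genes, grey points the 11170 other genes that reached 1 RPKM in at least 3 libraries, and dashed lines the limits of -0.5 and 0.5. Ubd stands at the far corner, with -3.88 and 2.45, and most blue points lie close to the knockdown limit.

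At the limits, the genes just inside and just outside differed little. Among those nearest the overexpression limit were Glipr2 (-0.51) and Dhcr7 (-0.51) inside, and Gm10762 (-0.48), Mgst1 (-0.47) and Gm45727 (-0.47) outside. For knockdown, Ramp2 (0.51), Tmigd1 (0.51) and Mat2a (0.52) were inside, and Lgals3bp (0.50, just short of the limit), Ankrd13b (0.49) and Sh3pxd2a (0.49) were outside. Mgst1, a microsomal glutathione transferase, and Lgals3bp, a secreted glycoprotein, were thus left out despite log2 changes of 0.94 with knockdown and -1.68 with overexpression. A further 3 genes, the small RNA genes Mir7041, Mir6991 and Snord34, met both sizes but had overlapping libraries.

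Secreted proteins of fat cells made up 7 of the genes, and 3 of them were among the most abundant. Their median log2 change was -2.15 with overexpression and 0.76 with knockdown. Adipoq, which encodes the insulin-sensitizing hormone adiponectin, was at 1967, 1934 and 1944 RPKM in empty-vector cells and at 455, 422 and 435 with overexpression. With the scrambled hairpin it was at 883, 899 and 949 RPKM, and with the Foxp1 hairpin at 1414, 1353 and 1481. The 4 groups lay apart, in the order overexpression, scrambled, Foxp1 hairpin and empty vector, so that knockdown cells stayed below the empty-vector cells.

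Cfd, adipsin or complement factor D, is a serine protease of the alternative complement pathway that fat cells secrete. It was at 1579, 1685 and 1684 RPKM in empty-vector cells and 323, 308 and 251 with overexpression, 5.61-fold lower. The scrambled libraries stood at 380.3, 369 and 392.1 RPKM, nearer to the overexpression level than to the other control, and the Foxp1 hairpin libraries at 646, 671 and 784, 1.84-fold higher. Ccdc80, a secreted protein with a role in fat cell differentiation, was likewise highest with the empty vector: 169.8 ± 7.84 RPKM (SD, n = 3) in empty-vector cells, 32.6 ± 1.92 with overexpression, 28.2 ± 0.648 scrambled and 48.3 ± 1.37 with knockdown.

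Apod and Retnla had the largest knockdown responses of the group, from opposite starting points. Apod, the lipid-binding apolipoprotein D, was at 111, 98.4 and 112 RPKM in empty-vector cells, 20.5, 22.2 and 24.7 with overexpression, 4.02, 4.05 and 5.05 scrambled and 20.01, 16.2 and 19.8 with the Foxp1 hairpin. The control cells therefore differed 24.5-fold, more than either treatment did (4.77-fold and 4.27-fold), and the overexpression libraries lay above the knockdown libraries. Retnla, the resistin-like protein also called FIZZ1 and RELMα, was at 16.5, 16.7 and 16.3, 3.48, 3.73 and 4.13, 39.3, 36.3 and 44.3 and 133, 125 and 149 RPKM in the same order of groups. Here the scrambled cells were above the empty-vector cells, and the knockdown libraries were the highest of all.

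The remaining secreted members were Clec3b (tetranectin, a plasminogen-binding protein) and Angpt1 (angiopoietin 1, a ligand of the endothelial receptor Tie2). Clec3b was at 13.1 ± 0.499 RPKM in empty-vector cells and 3.69 ± 0.803 with overexpression, and at 1.32 ± 0.3796 and 2.67 ± 0.262 with the scrambled and Foxp1 hairpins (SD, n = 3). For Angpt1 these were 22.3 ± 0.234, 13.996 ± 0.501, 10.8 ± 1.04 and 18.6 ± 0.568 RPKM. The other secreted factors of fat cells did not share the pattern as a list. Of 24 measured genes of that list outside the rule, 12 rose and 8 fell with overexpression, and 5 rose and 13 fell with knockdown. Of the 24, 2 fell with overexpression and rose with knockdown, against 6% of the 11245 genes. Resistin (Retn), for example, fell with overexpression (344 to 77.6 RPKM, adjusted p = 4.21e-11) and also with knockdown (268 to 228 RPKM, adjusted p = 0.00522), while lipocalin 2 (Lcn2), an iron-siderophore carrier, did the reverse of the Foxp1-opposed genes (log2 3.08 and -0.63).

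**Figure D2:**
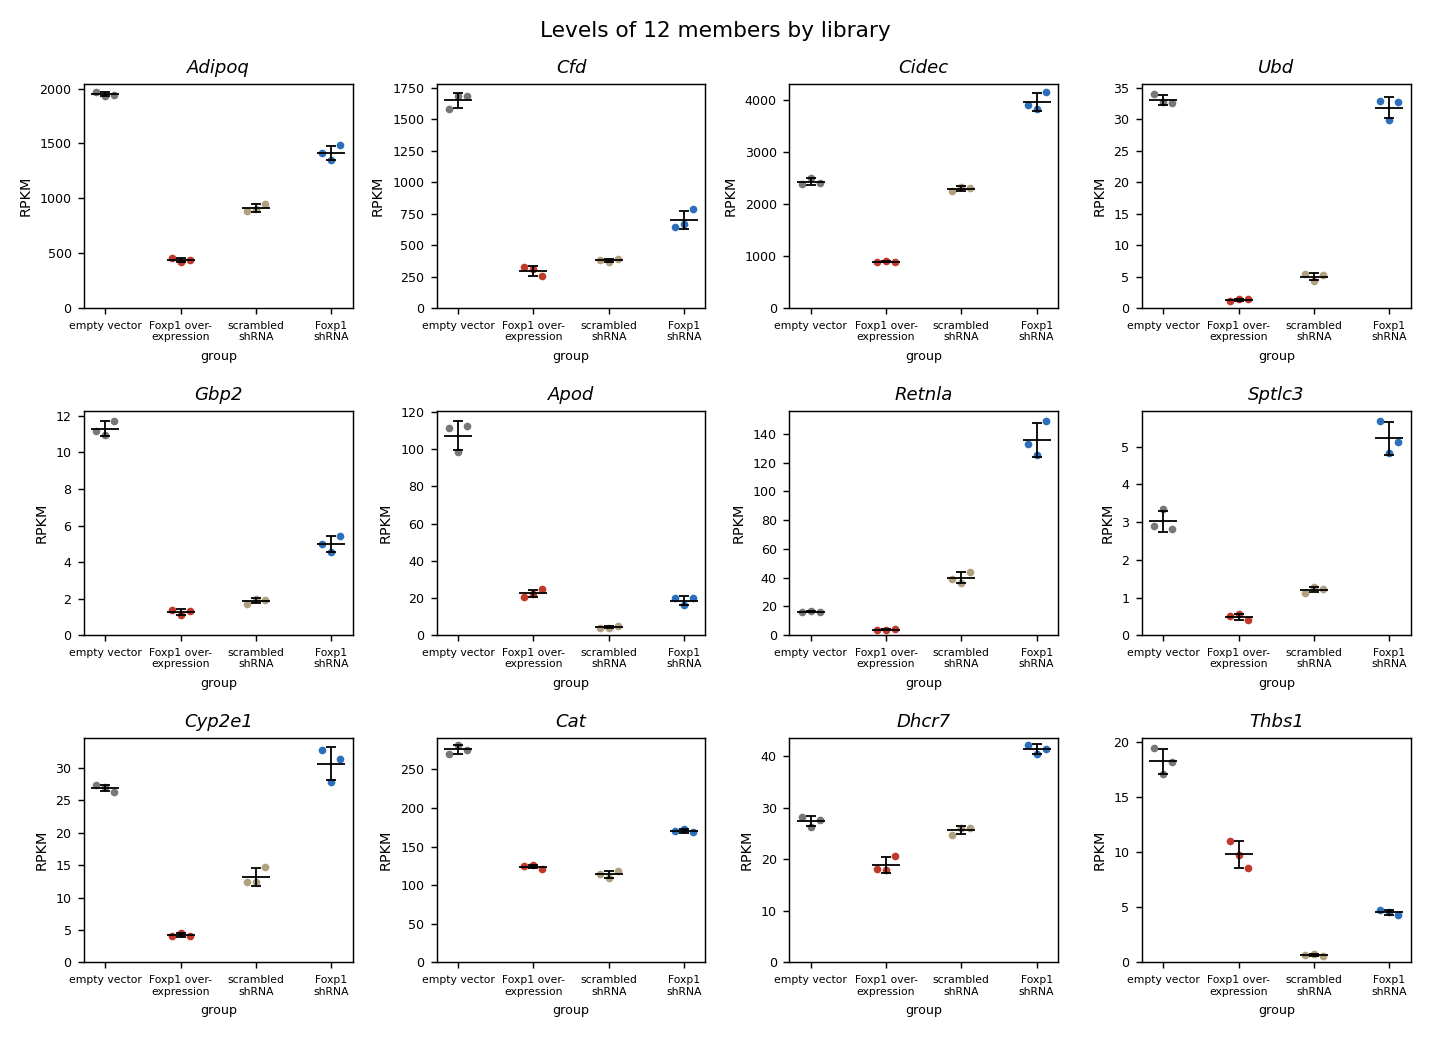
RPKM of 12 of the genes in each of the 12 libraries (points), by group, with the mean (long bar) and SD (short bars) of 3 libraries; each panel has its own linear axis from 0. Libraries of a group lie close together, and the control groups differ from each other in most panels, as for Apod at 107 and 4.37 RPKM.

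Genes of lipid storage and lipid enzymes numbered 7, with median log2 changes of -1.43 and 0.73. Cidec, a lipid droplet protein that joins droplets into larger ones, was the most abundant of the 77 genes. It was at 2386, 2506 and 2397 RPKM in empty-vector cells and 885, 907 and 886 with overexpression. The scrambled libraries were at 2246, 2325 and 2312 RPKM and the knockdown libraries at 3904, 3830.1 and 4148. For this gene the controls differed only 1.06-fold, and both treated groups lay outside them, overexpression below and knockdown above. Its relative Cidea, another droplet protein, looked up after these values were seen, moved the other way: it rose with overexpression (2.99 to 12.7 RPKM, adjusted p = 2.47e-08) and fell with knockdown (5.77 to 1.303 RPKM, adjusted p = 4.35e-07).

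Aqp7, the glycerol channel of fat cells, was at 9.09 ± 0.357 and 2.81 ± 0.178 RPKM (SD, n = 3) without and with overexpression, and at 3.28 ± 0.198 and 6.07 ± 0.415 without and with knockdown. Abhd15, a fat cell protein that stabilizes the phosphodiesterase PDE3B, was at 41.4 ± 1.55, 19.4 ± 1.93, 26.1 ± 2.42 and 43.5 ± 2.904 RPKM, and the empty-vector and knockdown libraries overlapped. The RNA of Pde3b itself, named after its values were seen, fell with overexpression (10.9 to 3.78 RPKM, adjusted p = 1.33e-09) and was 11.8 and 12.3 RPKM in the hairpin comparison (adjusted p = 0.398).

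The desaturase Scd3 and the serine palmitoyltransferase subunit Sptlc3 make unsaturated fatty acids and sphingoid bases. Scd3 was at 23.7, 25.9 and 23.2 RPKM in empty-vector cells, 2.65, 2.47 and 2.54 with overexpression, 8.09, 7.86 and 8.52 scrambled and 17.4, 18.8 and 18.6 with knockdown. Its far more abundant relative Scd1 fell with overexpression (5873 to 2672 RPKM, adjusted p = 4.63e-09) and rose with knockdown (3049.5 to 3914 RPKM, adjusted p = 0.00019), by less than the limit in the latter. Sptlc3 was at 2.91, 3.35 and 2.82, 0.514, 0.555 and 0.401, 1.13, 1.27 and 1.22 and 5.69, 4.84 and 5.13 RPKM, with no overlap between any groups. Its partner subunits moved little: Sptlc1 had log2 changes of -0.18 and 0.22, and Sptlc2, which rose in both comparisons, 0.23 and 0.14 (adjusted p between 0.0005805 and 0.04414).

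The other two lipid genes were Hsd17b12, an enzyme of fatty acid elongation, and Arxes1, which is induced in fat cell differentiation. Hsd17b12 was at 108 ± 2.53, 73.96 ± 1.83, 117 ± 2.75 and 173 ± 5.302 RPKM (SD, n = 3). Arxes1 was at 13.01 ± 0.543, 3.41 ± 0.107, 12.8 ± 1.404 and 18.9 ± 1.799 RPKM, but its transcript is 99.2% identical to that of Arxes2 over 727 bases, so reads of the pair may be split between them. Arxes2 itself went from 85.5 to 19.9 RPKM and from 97.6 to 127. In the wider lists, 8 of 34 other measured genes of fatty acid and triglyceride synthesis (5 after rescaling to TPM, 6 under quantile normalization and 10 under median-ratio scaling) and 6 of 18 of the droplet coat and lipolysis genes fell with overexpression and rose with knockdown, against 675 of 11245 genes overall (6%).

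Of 17 measured fat cell markers, 14 fell and 2 rose with overexpression, while 9 rose and 6 fell with knockdown. Without the 5 that the rule selected, 9 of 12 fell and 2 rose with overexpression, and 4 rose and 6 fell with knockdown. The Foxp1-opposed genes among them are Adipoq, Cfd, Cidec, Aqp7 and Car3, and a further 4 markers fell and rose in the same way by the test, 2 after rescaling to TPM. Pck1, which makes the glycerol backbone of triglyceride, rose with overexpression (1.99 to 10.1 RPKM, adjusted p = 5.15e-11). The β3-adrenergic receptor gene Adrb3 fell with overexpression (4.18 to 0.274 RPKM, adjusted p = 1.25e-10) and was at 0.4898 and 0.504 RPKM in the hairpin cells (adjusted p = 0.868). Markers of fat cells were therefore not uniformly among the Foxp1-opposed genes.

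A set of 3 genes that interferon is known to induce in other cells had median log2 changes of -2.43 with overexpression and 1.05 with knockdown. Ubd, a ubiquitin-like protein also called FAT10, was at 34.03, 32.8 and 32.6 RPKM in empty-vector cells and 1.14, 1.43 and 1.37 with overexpression, 25.2-fold lower. It was at 5.404, 4.38 and 5.25 RPKM with the scrambled hairpin and 32.9, 29.9 and 32.7 with the Foxp1 hairpin, 6.35-fold higher, and the knockdown libraries overlapped with the empty-vector libraries. Gbp2, a guanylate-binding protein of antimicrobial defence, was at 11.2, 10.97 and 11.7, 1.39, 1.103 and 1.35, 1.72, 2.01 and 1.95 and 5.01, 4.54 and 5.44 RPKM. AW112010, a transcript annotated as a long noncoding RNA, was at 1.28, 1.42 and 1.83, 0.101, 0 and 0, 1.01, 0.943 and 1.02 and 2.39, 2.503 and 2.91 RPKM. Its overexpression values rest on 3, 0 and 0 reads, so no fold is given.

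The interferon list as a whole was lower with overexpression without a common rise with knockdown. Of 26 measured genes, 18 fell and 3 rose with overexpression, and 8 rose and 8 fell with knockdown. Without Ubd and Gbp2, which the rule selected, 16 of 24 fell and 3 rose with overexpression, and 6 rose and 8 fell with knockdown. Outside the rule, 4 of 24 genes fell and rose in turn, 2 after rescaling to TPM. The immunoproteasome subunit Psmb10 was among them (27.7 to 14.1 RPKM, adjusted p = 2.58e-08; 10.9 to 14.7 RPKM, adjusted p = 9.04e-05). Irf1, a transcription factor of the interferon response, fell with overexpression (log2 -1.11, adjusted p = 2.19e-09) and had a log2 difference of -0.11 with knockdown (adjusted p = 0.0884).

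Promoter sequence was available for 59 of the 77 genes, in 67 windows of 300 bases from RefSeq on GRCm38.p6 (250 bases before to 50 after a start site). The strict forkhead site TGTTTAC, searched like every motif on both strands, was in 1 of the 67 windows (1.49%), against 3.65% of all 32851 windows in the table and 2.44% of the 10667 windows of genes that reached 1 RPKM. That window belongs to Tmem140, a membrane protein of unknown function, which holds the site at both 116 and 5 bases before its start. The looser TGTTTNC, which includes the strict site, was in 23.9% of windows, against 20.5% and 14.8%. The interferon-stimulated element, TTTC and TTTC with any 2 bases between, was in 6 windows (8.96%, against 3.44% and 2.81%), those of Sptlc3, Gbp2, Tmem140, Slc13a4, Clec2d and Tmigd1. The windows of Ubd and AW112010, grouped above with Gbp2, did not hold this element. Below are the promoters of Tmem140, Gbp2 and Clec2d, which hold this element, and of Adipoq, which does not, each from 250 bases before the start to 10 bases after it, 5′ to 3′ on the plus strand. Capitals mark matches to TGTTTNC (in Tmem140 the strict form), to the interferon-stimulated element and, in Adipoq only, CCAAT, on either strand. They lie at chr6:34862896-34863155, chr3:142620413-142620672, chr6:129180365-129180624 and chr16:23146286-23146545.
Tmem140: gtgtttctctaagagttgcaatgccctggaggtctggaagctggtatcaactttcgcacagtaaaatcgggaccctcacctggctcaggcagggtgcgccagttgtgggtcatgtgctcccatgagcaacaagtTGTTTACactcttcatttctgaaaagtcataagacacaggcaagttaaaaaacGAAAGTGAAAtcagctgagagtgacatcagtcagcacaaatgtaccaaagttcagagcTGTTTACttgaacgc
Gbp2: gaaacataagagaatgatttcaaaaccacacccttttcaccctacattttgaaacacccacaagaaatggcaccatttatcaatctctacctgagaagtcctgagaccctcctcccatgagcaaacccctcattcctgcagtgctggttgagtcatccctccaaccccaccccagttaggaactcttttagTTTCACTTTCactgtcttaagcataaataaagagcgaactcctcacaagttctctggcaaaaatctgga
Clec2d: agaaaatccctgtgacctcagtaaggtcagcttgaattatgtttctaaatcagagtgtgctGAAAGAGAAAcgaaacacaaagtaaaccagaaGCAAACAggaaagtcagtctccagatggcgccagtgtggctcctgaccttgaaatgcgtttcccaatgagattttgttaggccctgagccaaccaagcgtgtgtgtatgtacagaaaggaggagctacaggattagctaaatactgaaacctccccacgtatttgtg
Adipoq: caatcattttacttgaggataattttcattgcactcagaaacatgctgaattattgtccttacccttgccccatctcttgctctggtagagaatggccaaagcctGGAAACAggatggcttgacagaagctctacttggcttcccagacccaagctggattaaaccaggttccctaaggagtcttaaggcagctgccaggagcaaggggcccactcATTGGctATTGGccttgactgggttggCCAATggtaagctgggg
Tmem140 was at 22.5 ± 0.775, 4.44 ± 0.306, 7.44 ± 0.243 and 12.4 ± 0.4197 RPKM (SD, n = 3) in empty-vector, overexpression, scrambled and knockdown cells, but 37.0% of its exon bases overlap the opposite-strand gene Cyren and the strand setting of the counting is not given.

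Among other motifs, the C/EBP form TTGCNNAA was in 16.4% of the windows (10.8% of all, 8.44% of expressed genes), the nuclear receptor site AGGTCA in 19.4% (16.3% and 12.4%) and CCAAT in 47.8% (37.4% and 37.9%). The TATA form TATAAA was in 19.4% of windows (13.6% and 6.79%), and the GC box GGGCGG in 35.8% (35.7% and 64.6%). The antioxidant form TGACNNNGC was in 10.4% (12.4% and 14.4%), and the sterol-regulatory form TCACNCCAC was in no window (1.24% and 1.12%). The windows of the Foxp1-opposed genes had a median GC content of 52.3%, against 61.3% for expressed genes and 52.7% for the whole table. These are counts of letters in one short window per start site and name no binding.

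Enzymes of redox balance, alcohols and detoxification, a broad class assigned by hand, numbered 16, with median log2 changes of -1.01 and 0.64. The class also takes in enzymes of other kinds, such as Mat2a and Car3. Cyp2e1, a cytochrome P450 that oxidizes ethanol and acetone, was at 27.3, 27.04 and 26.4 RPKM in empty-vector cells and 4.07, 4.59 and 4.14 with overexpression. It was at 12.3, 12.3 and 14.8 RPKM with the scrambled hairpin and 32.7, 27.8 and 31.4 with the Foxp1 hairpin. The 4 groups did not overlap, and knockdown cells were the highest.

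Both peroxide-removing enzymes of the group were abundant. Catalase (Cat) was at 270.3, 282 and 275 RPKM in empty-vector cells, 124, 126 and 121 with overexpression, 114, 109 and 118 scrambled and 170.1, 173 and 168 with knockdown. Overexpression and scrambled libraries were apart by only a small margin, and the knockdown level was between them and the empty vector. Glutathione peroxidase 1 (Gpx1) was at 242, 233 and 245, 79.5, 74.1 and 66.9, 113, 118 and 121 and 188, 172 and 192 RPKM, with overexpression the lowest and the groups apart.

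The alcohol dehydrogenases Adh1 and Adh7, which also oxidize retinol, lie 27.6 kilobases apart on chromosome 3. Adh1 was at 20.8 ± 0.659, 3.56 ± 0.273, 10.1 ± 0.619 and 16.2 ± 1.22 RPKM (SD, n = 3) in empty-vector, overexpression, scrambled and knockdown cells, and Adh7 at 5.88 ± 0.07398, 2.07 ± 0.212, 2.35 ± 0.186 and 4.18 ± 0.196. Adh5, in the same cluster and named after its values were seen, fell by 0.15 on the log2 scale with overexpression (adjusted p = 0.0322) and by 0.31 with knockdown (adjusted p = 0.000442).

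Quinone and carbonyl reduction was represented by Nqo1, Cbr3 and Dhrs4. Nqo1 was at 19.5, 12.2, 9.64 and 17.5 RPKM, and Dhrs4 at 28.6, 17.1, 9.41 and 17.4. Cbr3 differed from them in its controls: 35.9, 37.1 and 33.4 RPKM with the empty vector but 59.2, 59.98 and 59.4 with the scrambled hairpin, next to 23.2, 20.3 and 16.2 with overexpression and 98.7, 87.9 and 104 with knockdown. The enzymes of methyl-group metabolism were Mat2a, which makes S-adenosylmethionine, and Nnmt, which methylates nicotinamide. Mat2a was at 129.7, 72.5, 84.1 and 121 RPKM and Nnmt at 28.9, 13.99, 12.2 and 19.04. Mat2b, the regulatory subunit gene, named after its values were seen, had log2 differences of 0.11 and 0.03 (adjusted p = 0.11 and 0.631).

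The other members of the group were the carbonic anhydrase Car3, the ferrireductase Steap4, the P450 Cyp2c70, the glucuronosyltransferase Ugt1a6b and the acyl-CoA enzymes Acsm5 and Glyat. Car3, a fat cell marker, was at 9.26, 3.08, 1.92 and 3.57 RPKM. Ugt1a6b shares 55.0% to 60.6% of its exon bases with other Ugt1a genes on the same strand, so its own share of the reads is uncertain. Acsm5 and Glyat had low levels, at most 1.49 and 0.647 RPKM in any group mean, and fewer than 20 reads in at least 1 library.

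The antioxidant and glutathione list held 4 of these genes. Of its 48 measured genes, 29 fell and 9 rose with overexpression and 18 rose and 13 fell with knockdown, and outside the rule 7 of 44 fell and rose in turn. Gsta4, a glutathione transferase for lipid aldehydes, fell with overexpression (31.4 to 8.51 RPKM, adjusted p = 4.16e-11) and was at 18.7 and 18.02 RPKM in the hairpin cells (adjusted p = 0.432). In the P450 and detoxification list, 19 of 33 measured genes fell and 6 rose with overexpression, 16 rose and 9 fell with knockdown, and 7 of 30 outside the rule did both. Cyp2f2 was one of these (186 to 52.1 RPKM, adjusted p = 3.56e-11; 66.4 to 83.2 RPKM, adjusted p = 0.000182). Cyp4b1, in contrast, rose in both comparisons (log2 2.43 and 0.79).

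Enzymes of sterol synthesis included Dhcr7 and Idi1. Dhcr7, which makes cholesterol from its immediate precursor, was at 28.3, 26.3 and 27.7 RPKM in empty-vector cells, 18.2, 17.9 and 20.7 with overexpression, 24.8, 26.04 and 26.1 scrambled and 42.2, 40.4 and 41.5 with knockdown, although its transcript holds repeats of up to 227 bases that occur in other genes. All 4 groups lay apart, with overexpression the lowest and knockdown the highest. Idi1, the isopentenyl diphosphate isomerase, was at 35.5, 19.1, 40.2 and 59.6 RPKM, with the scrambled mean above the empty-vector mean.

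Of the pathway lists with a Foxp1-opposed gene, cholesterol synthesis and uptake had the highest share of other genes moving the same way. Of 29 measured genes, 18 fell and 3 rose with overexpression, and 16 rose and 3 fell with knockdown. Outside the rule, 10 of 26 fell and rose in turn, and 8 to 12 did so under other scalings or without overexpression replicate 3. They include Mvd, which makes isopentenyl diphosphate (53.5 to 28.5 RPKM, adjusted p = 7.39e-09; 72.8 to 90.7 RPKM, adjusted p = 0.000125), and the desaturase Sc5d (log2 -0.88 and 0.12, adjusted p = 6.08e-09 and 0.035). Lanosterol demethylase (Cyp51) fell in both comparisons (log2 -1.36 and -0.23, adjusted p = 4.62e-11 and 0.00035).

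Matrix proteins and their enzymes numbered 6, with median log2 changes of -0.81 and 0.76. Thbs1, thrombospondin 1, which activates latent TGF-β and limits vessel growth, was at 19.4, 17.1 and 18.2 RPKM in empty-vector cells and 11.1, 9.75 and 8.57 with overexpression. It was at 0.647, 0.758 and 0.604 RPKM with the scrambled hairpin and 4.72, 4.57 and 4.304 with the Foxp1 hairpin. The 6.76-fold difference with knockdown thus started from a control 27.2-fold below the other control. Thbs2, its closest relative, named after its values were seen, rose in both comparisons (log2 0.57 and 0.46, adjusted p = 3.65e-06 and 4.09e-05).

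The small leucine-rich proteoglycans Aspn, Ogn and Prelp bind collagen fibrils, and Aspn and Ogn lie 40.5 kilobases apart on chromosome 13. Aspn (asporin) was at 84.6 ± 2.905, 48.6 ± 1.56, 52.7 ± 3.402 and 92.2 ± 3.48 RPKM (SD, n = 3), so that the overexpression and scrambled libraries were the low groups. Ogn (osteoglycin) was at 46.5, 36.1 and 37.5, 24.2, 23.6 and 25.5, 3.48, 3.29 and 4.403 and 10.2, 6.69 and 8.56 RPKM. Despite its place beside Aspn, Ogn was lower in knockdown than in overexpression cells. Prelp was at 79.1 ± 4.403, 44.2 ± 5.42, 30.8 ± 0.981 and 51.8 ± 1.55 RPKM.

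Mmp11, a secreted metalloproteinase, was at 19.1, 9.46, 9.82 and 15.5 RPKM, and Itgbl1, an integrin-like secreted protein, at 9.64, 6.13, 1.58 and 3.07. In the matrix list, 20 of 44 measured genes rose and 16 fell with overexpression, against 31% and 20.3% of the 11245 genes. With knockdown 20 rose and 5 fell, against 18.7% and 31%. Without the 4 Foxp1-opposed genes, 20 of 40 rose and 12 fell with overexpression, and 16 rose and 5 fell with knockdown. Outside the rule, 4 of 40 fell with overexpression and rose with knockdown. Decorin (Dcn) was 1 of these (27.7 to 7.99 RPKM, adjusted p = 1.24e-09; 15.03 to 19.4 RPKM, adjusted p = 0.00112). Sparcl1, a secreted relative of osteonectin, fell in both comparisons (log2 -1.25 and -0.15).

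Receptors and surface proteins were represented by 6 genes with median log2 changes of -0.79 and 0.55. Ptgfr, the receptor of prostaglandin F2α, a ligand known to restrain fat cell differentiation, was at 3.04, 2.81 and 2.98 RPKM in empty-vector cells, 1.07, 1.08 and 1.09 with overexpression, 2.904, 2.53 and 3.18 scrambled and 5.35, 5.13 and 5.06 with knockdown. The control groups overlapped, and the treated groups lay on either side of them. Olr1, the lectin-like receptor of oxidized low-density lipoprotein, was at 7.94, 7.27 and 7.39, 3.25, 3.66 and 4.44, 14.996, 14.9 and 15.97 and 24.1, 24.6 and 21.8 RPKM, with the scrambled cells above the empty-vector cells.

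Calcrl and Ramp2 encode the subunits that together form a receptor for adrenomedullin, and both were among the 77 genes. Calcrl was at 2.06 ± 0.0737, 1.14 ± 0.00512, 2.13 ± 0.0971 and 3.497 ± 0.232 RPKM (SD, n = 3). Ramp2 was at 2.48 ± 0.155, 1.09 ± 0.146, 3.04 ± 0.128 and 4.73 ± 0.103 RPKM, but 33.4% of its exon bases also belong to Vps25 on the same strand. The ligand gene Adm, looked up after these values were seen, fell with knockdown (6.502 to 2.36 RPKM, adjusted p = 1.18e-06) and was at 8.69 and 7.88 RPKM in the overexpression comparison (adjusted p = 0.253). Clec2d, a C-type lectin, was at 45.9, 21.7, 17.2 and 26.3 RPKM, and Tmigd1, an adhesion protein, at 1.67, 0.86004, 1.39 and 2.41. In the list of metabolite and lipid receptors, 11 of 18 measured genes fell with overexpression and 5 rose. With knockdown 7 rose and 6 fell (4 and 7 after rescaling to TPM). Without Olr1 and Ptgfr, which the rule selected, 9 of 16 fell and 5 rose with overexpression, and 5 rose and 6 fell with knockdown. Hcar2, a receptor of ketone bodies and nicotinic acid, fell in both (log2 -1.74 and -0.36, adjusted p = 1.08e-10 and 0.000155).

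The list held 3 membrane transporters. Slc22a20, an organic anion transporter, was at 9.71, 9.597 and 9.23, 1.91, 1.98 and 1.805, 6.62, 6.37 and 5.78 and 13.8, 14.2 and 15.9 RPKM, with all 4 groups apart. Slc13a4, a sulfate transporter, was at 10.3, 2.77, 4.61 and 7.82 RPKM, and Abcc4, an exporter of cyclic nucleotides and prostaglandins, at 14.1, 6.52, 6.96 and 10.9.

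Signalling and transcription regulators numbered 5. Atf5, a stress-responsive transcription factor, was the most abundant, at 282, 281 and 302 RPKM in empty-vector cells, 182, 189 and 232 with overexpression, 244, 250.1 and 249 scrambled and 388, 369 and 397 with knockdown. Replicate 3 was the highest of the overexpression libraries. Spry1, an inhibitor of receptor tyrosine kinase signalling, was at 7.57, 8.01 and 7.61, 5.03, 4.79 and 4.38, 8.53, 9.47 and 9.802 and 20.3, 18.1 and 19.6 RPKM, with its larger change in knockdown. Sox4 was at 21.1, 11.4, 7.97 and 12.8 RPKM, the kinase anchor Akap12 at 10.2, 6.28, 4.81 and 8.52, and the ubiquitin ligase Rnf125 at 14.7, 4.13, 12.9 and 20.2. Sox4 shares 54.6% of its exon bases with the opposite-strand gene Gm26735.

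A pair of genes known from keratinocytes and hair, Sprr1a and Krt36, was also present. Sprr1a, a precursor of the cornified envelope, was at 2.62, 2.29 and 2.11 RPKM in empty-vector cells and 0.235, 0.169 and 0.2697 with overexpression. It was at 2.05, 1.59 and 1.77 RPKM scrambled and 10.95, 8.74 and 10.6 with knockdown, 5.60-fold higher. Its overexpression values rest on 7, 5 and 8 reads, so no fold is given for that comparison. Krt36, a hair keratin, was at 3.74, 1.98, 4.06 and 6.27 RPKM. The mesothelial and epithelial markers given above had their highest sum with overexpression, where these genes were lowest.

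The remaining 17 genes had other or unknown roles. They are Tmem140, Tmem182, Mettl27, Dpysl3, Jpt1, Glipr2, Prr32, 1700029I15Rik, 3930402G23Rik, 4930511E03Rik, 2310001K24Rik, AC132133.2, Gm37416, Gm10638, Gm16574, Gm17147 and Gm5914. Their log2 changes ran from -2.11 (Tmem140) to -0.51 (Glipr2) with overexpression and from 0.53 (Mettl27) to 1.05 (Dpysl3) with knockdown. Tmem182, a muscle and fat cell membrane protein, was at 9.42, 1.92, 4.29 and 6.899 RPKM. Jpt1, also called Hn1, was at 37.8, 25.8, 25.8 and 47.7 RPKM, and Dpysl3, a cytoskeletal phosphoprotein, at 2.69, 1.53, 2.26 and 5.73. Of the noncoding genes, 2310001K24Rik overlaps the better expressed opposite-strand gene Fitm2 (30.7% of its exon bases) and Gm5914 overlaps Ctcf (72.5%), so their reads are uncertain, as are those of the protein-coding Gm10638, which shares 118 exon bases with Siah1a. Gm37416 is 97.8% identical over 316 bases to AC158975.2, which had a mean of 14.25 RPKM, so the reads of Gm37416 are uncertain as well. By annotated class, 68 of the 77 genes were protein coding (88.3%, against 90.4% of the 11245 genes), 5 were long intergenic noncoding RNAs, 2 were processed pseudogenes, 1 was antisense and 1 was of unsettled class. In 6 cases a pair of the genes lay within 1000 kilobases, the closest being Adh7 with Adh1 and Aspn with Ogn.

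The control cells themselves differed in these genes. Scrambled-hairpin means lay below empty-vector means in 67 of 77 genes (87.0%) and above them in 10. All 3 scrambled libraries lay below all 3 empty-vector libraries in 64 genes and above them in 8, against 30.1% and 48.9% of the 11245 genes. The median log2 difference of scrambled from empty-vector cells was -0.95, about the size of the median overexpression change. It was -0.27 for the 574 other genes lower with overexpression, -0.42 for the 223 others higher with knockdown and 0.95 for the 98 genes of the opposite pattern, against 0.09 for all 11245. The rule used the same control libraries, and a high empty-vector mean or a low scrambled mean favours entry, so these are descriptions. Among all 2175 genes at 1 RPKM or more in 3 libraries whose means were lower with overexpression and higher with knockdown by any amount, 69.2% had the scrambled mean below the empty-vector mean. The hairpin and vector cells also differ in their construct, and the effect of the construct, of any separate culture and of Foxp1 itself, at 1.804 and 2.18 RPKM, cannot be told apart in this comparison.

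**Figure D3:**
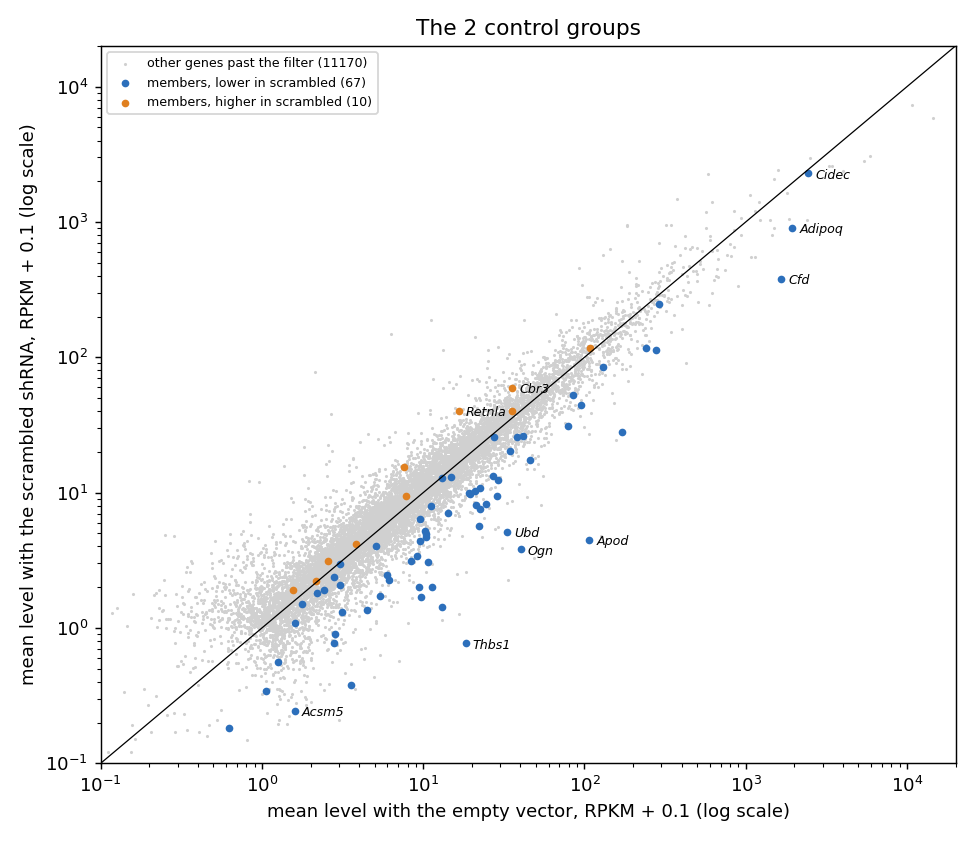
Mean RPKM (plus 0.1, log axes) with the empty vector (x axis) and with the scrambled hairpin (y axis), for the 77 genes (blue where the scrambled mean is lower, 67 genes; orange where it is higher, 10 genes) and 11170 other genes (grey); the line marks equal levels. Apod, Thbs1 and Ogn lie farthest below the line among the labelled abundant genes, and Retnla and Cbr3 above it.

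The 10 genes higher in scrambled than in empty-vector cells were Retnla, Cbr3, Spry1, Olr1, Idi1, Hsd17b12, Krt36, 3930402G23Rik, Calcrl and Ramp2. The rule then fixes the order of all 4 means, with overexpression lowest and knockdown highest. In 33 genes knockdown cells exceeded empty-vector cells and in 44 they did not. Among the 2175 genes, the orders with knockdown above empty vector held 30.8%, 10.8% and 6.57%. In 27 genes the scrambled mean was below the overexpression mean, and the orders with this feature held 28.6%, 10.4% and 6.57% of the 2175.

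Given the rule, the group means can fall in 6 orders. The mean Foxp1 level ran from knockdown through empty vector and scrambled to overexpression, and the exact inverse, with overexpression lowest and then scrambled, empty vector and knockdown, was found in 21 genes (27.3%). Among the 2175 genes with the same signs of change, 234 (10.8%) had that order. Those genes did not have to meet the limits of size and separation, which also bear on the order, so the shares are descriptions. All neighbouring groups lay apart in 14 of the 21: Sprr1a, Sptlc3, Cyp2e1, Slc22a20, AW112010, AC132133.2, Cidec, Rnf125, Cyp2c70, Dpysl3, Glyat, Atf5, 1700029I15Rik and Dhcr7. That held for 43 of the 234 genes (18.4%), a group in which Glyat, at its low level, is not counted, and the rule had already set each treated group apart from its control. In 19 genes (24.7%, against 12.8% of the 2175), Ubd, Gbp2, Cfd, Adipoq and Gpx1 among them, the order was overexpression, scrambled, knockdown and empty vector. In 16 (20.8%, against 10.4%), including Cat, Ccdc80, Nqo1 and Prelp, scrambled cells were lowest, then overexpression, knockdown and empty vector.

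In 9 genes (11.7%), the means of both hairpin groups were below those of both vector groups. These genes were Apod, Thbs1, Ogn, Clec3b, Itgbl1, Steap4, Gm37416, Gm10638 and 2310001K24Rik. This order was held by 28.6% of the 2175 genes with the same signs of change, and it makes the control difference the largest by construction. Single knockdown and overexpression libraries overlapped in Steap4, Gm37416, 2310001K24Rik and, by a small margin, Clec3b. The last order, scrambled lowest and knockdown highest with overexpression below empty vector, held for 2 genes (2.6%, against 6.57% of the 2175), Jpt1 among them. Across the 77 genes, the overexpression and knockdown changes had a Pearson correlation of -0.467, a description over genes that share the same 12 libraries.

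**Figure D4:**
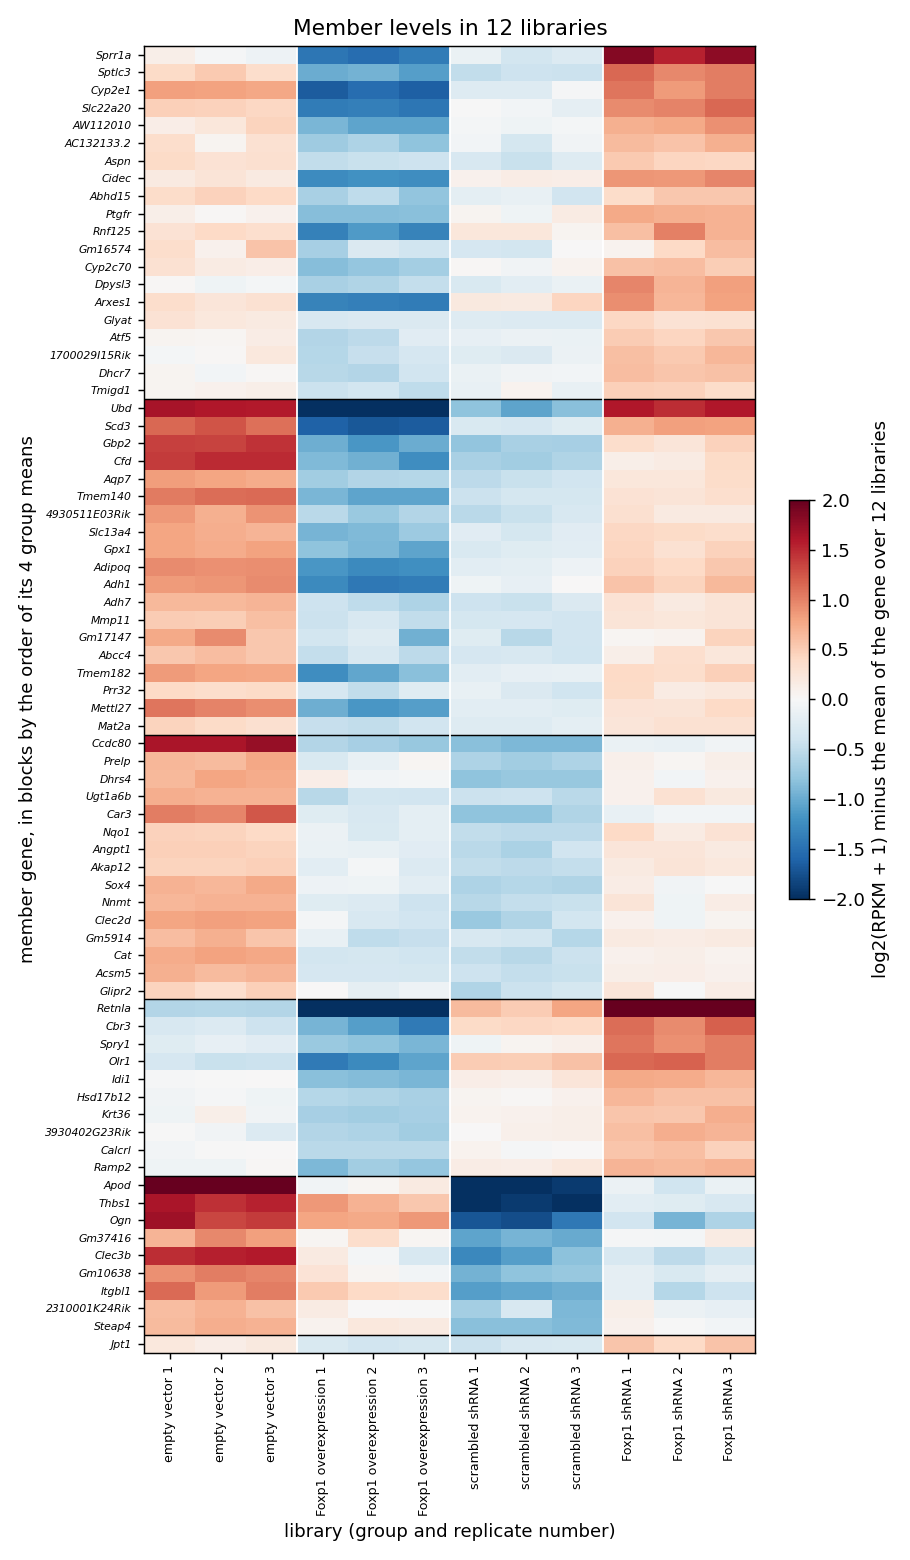
Level of 74 of the 77 genes (rows) in each of the 12 libraries (columns), as log2(RPKM + 1) minus the gene's mean over the 12 libraries; colours from blue to red span -2 to 2, and black lines separate the orders of the group means. The top block holds 20 genes with the inverse order of the Foxp1 level and the block of Apod, Thbs1 and Ogn the 9 genes with both hairpin groups low.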

How the data were processed

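The authors deposited a matrix of RPKM per gene for 12 libraries, divided by 1000; values were multiplied by 1000 here, which the column sums (311.8 to 357.7 as deposited) and the value of 1 read bear out. Per the submitters' processing notes, HISAT2 2.1.0, featureCounts and Subread 1.5.3 were used on mm10; their roles, the strand setting and the handling of multimapping reads are not given in the sources used here. Depth was read from the low values: value times exon length was a whole number of reads within 0.05 for 98.8% to 99.0% of values. Groups came from the sample titles. Symbols, exons and positions were matched for 28896 of 28948 genes. Log2(RPKM + 1) was fitted, for genes reaching 1 RPKM in 3 or more libraries, with limma 3.58.1 (R 4.3.3; 4 groups, variance trend, Benjamini-Hochberg adjusted p under 0.05), after a test on simulated data; fold changes on this scale understate those of low genes. Rose and fell refer to this test; changes of the 77 genes are untested, and values are given in replicate order.

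The genes and the 50 gene lists (42 pathways, 8 cell types) were chosen with earlier results of these data known. Of the 77 genes, 3 enter the counts but are not reported here by name; those described in full are list members, the 15 with the largest smaller change, the 10 most abundant and those at the limits. Per list with at least 2 Foxp1-opposed genes, up to 3 others with the smallest overexpression p were eligible. The grouping by role, the genes described outside these rules and 30 subunits, relatives and neighbours looked up (among them Scd1, Sptlc1, Sptlc2, Pde3b, Cidea, Arxes2, Thbs2, Adm, Adh5 and Mat2b; the others are mostly not described) were chosen after values were seen. Transcripts were compared with blastn 2.17.0 (at least 95% identity over 200 bases); 14 motifs were searched. Alternatives covered pseudocounts, scalings, filters, limits, a replicate block and leaving out each library. Python 3.11.15, pandas 2.3.3, numpy 2.4.6 and matplotlib 3.10.9 were used.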

Additional observations from a re-analysis of the deposited data

How the results depend on the processing

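The number of Foxp1-opposed genes, 77, depended on the size limit and on what was added before taking logs. It was 234 with 0.1 RPKM added, 29 with 5 RPKM added, 129 after rescaling to TPM (length-corrected share of transcripts), which also makes the added 1 smaller relative to the values, 131 with a limit of 0.4 and 9 with a limit of 1. It was 90 with median-ratio scaling, 88 with quantile normalization, 80 with overlapping libraries allowed, 75 with the low-value filter and 76 with limma calls in place of separation. Leaving out 1 library at a time gave 74 to 81 genes; 58 genes were kept in all 12 of these and 19 were lost in at least 1. TPM rescaling kept 76 of the 77 genes and the other two scalings all 77, and no gene's change turned its sign in any setting run. Of 484 single changes recomputed, 78 moved by more than 1 SD. Calls with overexpression (5775) ranged from 4965 to 6221 without 1 library, the highest without overexpression replicate 3, and were 6931 without a filter; calls with knockdown (5587) ranged from 4758 to 5350. The Foxp1 log2 difference without 1 library was 1.37 to 1.504 and -0.61 to -0.58.

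With the replicate number as a block, 5888 and 5709 genes were called and Foxp1 kept its direction (adjusted p = 3.22e-08 and 3.41e-05, limma). Deviations of same-numbered libraries correlated at -0.0132, 0.1176 and 0.0806 with overexpression and -0.0727, 0.0492 and -0.0595 with knockdown, so the numbers were not taken as pairs. Not every library correlated best with its own number.

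Low depth limits 10 genes, which had fewer than 20 reads in at least 1 library. Values are per gene, so isoforms, strand and reads shared with overlapping genes were not separated.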
